A study of Rattus norvegicus with 10 samples.

Results

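The 7 transient receptor potential (TRP) channel genes Trpv1, Trpv2, Trpa1, Trpm8, Trpm2, Trpm3 and Trpc1 were followed in rat dorsal root ganglia, which house the cell bodies of the neurons that sense heat, cold, touch and injury. They were taken by gene name from a table of 30560 genes. Their Ensembl identifiers were ENSRNOG00000019486 for Trpv1, ENSRNOG00000003104 for Trpv2, ENSRNOG00000007354 for Trpa1, ENSRNOG00000019035 for Trpm8, ENSRNOG00000001216 for Trpm2, ENSRNOG00000027770 for Trpm3 and ENSRNOG00000054902 for Trpc1. All 7 had a row, each under 1 identifier, and all 7 passed the filter on low counts that left 15186 genes for testing. No measured value entered the choice of these 7 genes, but results from these same libraries were already known when it was made. The libraries came from L6 ganglia of Sprague Dawley rats aged 7 to 8 weeks, with a timepoint of 14 days in every label. One group of 5 received phosphate-buffered saline (PBS), and another group of 5 was given SCN9A_2544 at 0.75 mg. SCN9A_2544 is a divalent siRNA, a short RNA duplex that directs cleavage of a matching message, here that of Scn9a, the gene of the sodium channel Nav1.7. Every rat, treated or not, carried a lumbar intrathecal catheter, was dosed through it 5 days after surgery under isoflurane in 30 to 45 µL, and received the analgesic meloxicam after surgery and after dosing. The labels name no sex, no non-targeting siRNA and no count of animals per sample, so the comparison cannot tell this siRNA from siRNA dosing in general, and p-values measure the spread between samples, part of which may be technical.

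TRP channels are cation channels that open to heat, cold, irritant chemicals, lipids or receptor signals and depolarise the sensory ending. In sensory ganglia TRPV1 is the receptor for capsaicin and noxious heat, TRPA1 answers mustard oil and other reactive irritants, TRPM8 answers cooling and menthol, and TRPM3 answers heat and the steroid pregnenolone sulfate. TRPV2 is found in medium and large sensory neurons and in immune cells, TRPM2 is gated by ADP-ribose and oxidative stress in neurons and in myeloid cells, and TRPC1 is a widely expressed subunit of receptor-operated channels.

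The stretches of 250 bases before the RefSeq start are shown for 3 of the 4 genes whose RNA rose with the neuronal content of the ganglion (below) and for Trpm2, which did not pass that test, so that both patterns can be read beside their promoters. Of the 7 genes 5 had an entry in the RefSeq table of build GRCr8, and the Trpm3 entry holds 2 starts. Capitals mark the letters of any of 5 searched motifs on either strand: TATAAA (the TATA box), GGGCGG (the GC box bound by SP and KLF factors), TGTGGT (the core bound by RUNX factors), TAATTA (a homeodomain core) and CAGCTG (an E-box).
Trpm8, chr9:96351433-96351682, plus strand: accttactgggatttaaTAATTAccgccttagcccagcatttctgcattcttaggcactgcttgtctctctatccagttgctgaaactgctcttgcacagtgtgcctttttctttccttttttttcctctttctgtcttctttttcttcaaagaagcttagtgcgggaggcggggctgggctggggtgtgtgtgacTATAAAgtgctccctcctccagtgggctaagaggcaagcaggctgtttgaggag
Trpv2, chr10:47771973-47772222, plus strand: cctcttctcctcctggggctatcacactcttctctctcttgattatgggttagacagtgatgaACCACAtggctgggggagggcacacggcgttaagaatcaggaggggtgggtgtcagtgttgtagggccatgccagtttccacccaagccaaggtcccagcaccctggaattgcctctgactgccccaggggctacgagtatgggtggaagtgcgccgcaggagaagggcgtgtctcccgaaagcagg
Trpv1, chr10:58349686-58349935, plus strand: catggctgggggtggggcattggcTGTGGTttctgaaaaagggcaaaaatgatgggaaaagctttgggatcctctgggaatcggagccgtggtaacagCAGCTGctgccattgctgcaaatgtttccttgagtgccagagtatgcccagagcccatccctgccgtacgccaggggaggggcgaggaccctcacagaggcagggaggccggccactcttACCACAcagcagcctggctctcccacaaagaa
Trpm2, chr20:10704222-10704471, plus strand: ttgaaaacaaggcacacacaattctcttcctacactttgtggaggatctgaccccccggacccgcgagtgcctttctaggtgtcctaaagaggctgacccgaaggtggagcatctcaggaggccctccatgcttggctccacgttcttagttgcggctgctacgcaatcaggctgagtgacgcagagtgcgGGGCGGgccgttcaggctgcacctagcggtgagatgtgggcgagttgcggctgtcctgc

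The Trpm8 window held TATAAA from 54 to 49 bases before the start and TAATTA farther upstream. TATAAA was present in 12.9% and TAATTA in 4.86% of all 33469 windows of the table. TGTGGT or its complement occurred at 2 places in the Trpv1 window, at 1 place in the Trpv2 window and at 1 place before the second Trpm3 start, against 14.5% of all windows with at least 1 match. The Trpm2 window held GGGCGG, as 30.5% of all windows did, and Trpv1 held CAGCTG, as 12.0% did. The window before the first Trpm3 start held none of the 5 motifs and was the richest in G and C, at 68.0%, against 48.0% for Trpm8. These matches describe letters and say nothing on which factor binds or which start the ganglion uses.

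The libraries held 11832376 to 15420006 estimated counts. The 7 genes had 205 to 2593 counts per library, and only 2 values, both of Trpm3, held a fraction of a count. The sensory neuron marker list was present in full: all 8 genes were tested, among them Avil with a PBS mean of 641 and a treated mean of 634 CPM (counts scaled to a common library total), and Prph with 1908 and 2141 CPM. Scn9a, the siRNA target, ran from 44.6 to 103 CPM in treated and from 132 to 257 CPM in PBS libraries. The groups did not overlap, which held for 0.665% of all genes. Its log2 fold change was -1.03 (SE 0.25), and Scn9a itself did not pass the edgeR test of treatment alone used below (adjusted p = 0.963). The mean log2 CPM of 20 pan-neuronal genes, used below as the neuronal content of a library, ran from 7.92 to 9.07 in PBS and from 7.74 to 8.98 in treated libraries. SCN9A_2544 replicate 3, PBS replicate 3 and PBS replicate 5 had the lowest values of it, and they also held the most Schwann cell and myelin RNA. The mean of 9 satellite glia markers did not overlap between the groups. It ran from 5.91 to 6.24 log2 CPM in PBS and from 6.43 to 6.59 in treated libraries. Taken singly, 1 of the 9 markers had groups that did not overlap, beside 0.665% of all genes. The part of satellite glia in the results below was not tested beyond the slopes given there. In whole ganglia, fewer neurons and less RNA per neuron cannot be told apart.

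No TRP channel gene of the 7 passed the test of SCN9A_2544 against PBS. For each gene the difference between group means was smaller than the larger of the group SDs in CPM. The treated mean of Trpc1, 22.8 CPM, still lay above every PBS library, of which the highest was at 21.4 CPM. Of the 7 genes 0 passed an adjusted p of 0.05 in edgeR's quasi-likelihood test over all genes, against 0% of all genes tested, and DESeq2 also called 0 of the 7, against 0.0945% of the genes for which it gave an adjusted p. An unadjusted edgeR p under 0.05 was reached by 0 of the 7, against 4.23% of all genes. The groups overlapped for all 7, while 0.665% of all genes had groups that did not overlap. All genes but Trpm3 lay above 0, 6 above and 1 below, and the median log2 fold change of the 7 was 0.14, against 0.02 over all genes tested.

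The heat channels come first. Trpv1 stood at 113, 68.9, 80.7, 124 and 56.9 CPM in PBS replicates 1 to 5 and at 91.8, 114, 63.7, 163 and 120 CPM in SCN9A_2544 replicates 1 to 5. The highest value was SCN9A_2544 replicate 4 and the lowest was PBS replicate 5, with the other libraries interleaved. The PBS mean was 88.7 ± 28.8 CPM and the treated mean 110 ± 36.8 CPM (SD, n = 5 each). The log2 fold change of Trpv1 was 0.32 (SE 0.27, 95% interval -0.27 to 0.90), with an edgeR adjusted p = 0.963. A reduction of Trpv1 larger than 0.27 on the log2 scale thus lay outside the interval, while an increase of up to 0.90 lay within it.

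Trpv2 stood at 77.3, 47.2, 37.1, 62.8 and 34.2 CPM in PBS replicates 1 to 5 and at 70.7, 71.4, 32.1, 62.7 and 65.3 CPM in treated replicates 1 to 5. Treated replicates 1, 2, 4 and 5 lay close together between 62.7 and 71.4 CPM, and replicate 3 lay below every PBS library. The log2 fold change was 0.23 (SE 0.26, 95% interval -0.35 to 0.80), with an edgeR adjusted p = 0.975. Trpm3, the other heat-gated channel, stood at 89.1, 96.2, 90.5, 83.4 and 134 CPM in PBS and at 98.0, 77.5, 85.6, 81.7 and 93.0 CPM in treated replicates. PBS replicate 5 was the highest library, and the other 9 lay between 77.5 and 98.0 CPM in both groups. Trpm3 had a log2 fold change of -0.18 (SE 0.15, 95% interval -0.50 to 0.14) and an edgeR adjusted p = 0.963.

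The cold and menthol channel gene Trpm8 stood at 48.4, 43.0, 16.9, 68.6 and 33.6 CPM in PBS replicates 1 to 5 and at 68.6, 77.1, 21.0, 59.4 and 59.0 CPM in treated replicates 1 to 5. Replicate 3 was the lowest of each group, and highest over lowest library was 4.57-fold, the widest range of the 7 genes. Trpm8 had the largest log2 fold change of the 7, 0.44, and the widest interval, -0.38 to 1.25 (SE 0.37, edgeR adjusted p = 0.963). The list of 3 cold-sensing afferent markers, Foxp2, Cdh8 and Penk, averaged 1.99 ± 0.58 log2 CPM under PBS and 2.14 ± 0.45 under treatment (SD, n = 5 each). Of the 3, 0 passed, and although the mean was higher, 2 of the 3 lay below 0, with a median log2 fold change of -0.01.

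The irritant channel gene Trpa1 stood at 50.2, 31.6, 37.4, 41.3 and 28.2 CPM in PBS and at 46.0, 44.5, 14.5, 37.4 and 58.4 CPM in treated replicates 1 to 5. The treated group held both the highest library, replicate 5, and the lowest, replicate 3, 4.03-fold apart. The means, 37.7 ± 8.63 and 40.2 ± 16.2 CPM (SD, n = 5 each), were close, and the log2 fold change was 0.09 (SE 0.30, 95% interval -0.57 to 0.75, edgeR adjusted p = 0.990). The estimate of Trpa1 was -0.08 with SCN9A_2544 replicate 5 left out, -0.02 with PBS replicate 5 left out and 0.27 with SCN9A_2544 replicate 3 left out.

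Trpm2 stood at 23.1, 25.4, 44.6, 31.0 and 19.2 CPM in PBS and at 40.0, 26.4, 24.4, 35.2 and 31.3 CPM in treated replicates 1 to 5. PBS replicate 3 was the highest of all libraries and PBS replicate 5 the lowest, so that the PBS group spanned the whole treated range. The log2 fold change of Trpm2 was 0.13 (SE 0.23, 95% interval -0.36 to 0.63, edgeR adjusted p = 0.976), and it was 0.35 without PBS replicate 3. Trpc1 stood at 21.4, 20.0, 20.0, 20.7 and 21.2 CPM in PBS and at 24.1, 25.8, 14.0, 24.8 and 25.3 CPM in treated replicates 1 to 5. The PBS libraries of Trpc1 varied by 3.25% (SD over mean), the least of any of the 7 genes in either group, and treated replicates 1, 2, 4 and 5 all lay above them while replicate 3 lay below them. The log2 fold change of Trpc1 was 0.14 (SE 0.17, 95% interval -0.22 to 0.50, edgeR adjusted p = 0.975), and without SCN9A_2544 replicate 3 it was 0.24 with an adjusted p = 0.661.

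**Figure D1:**
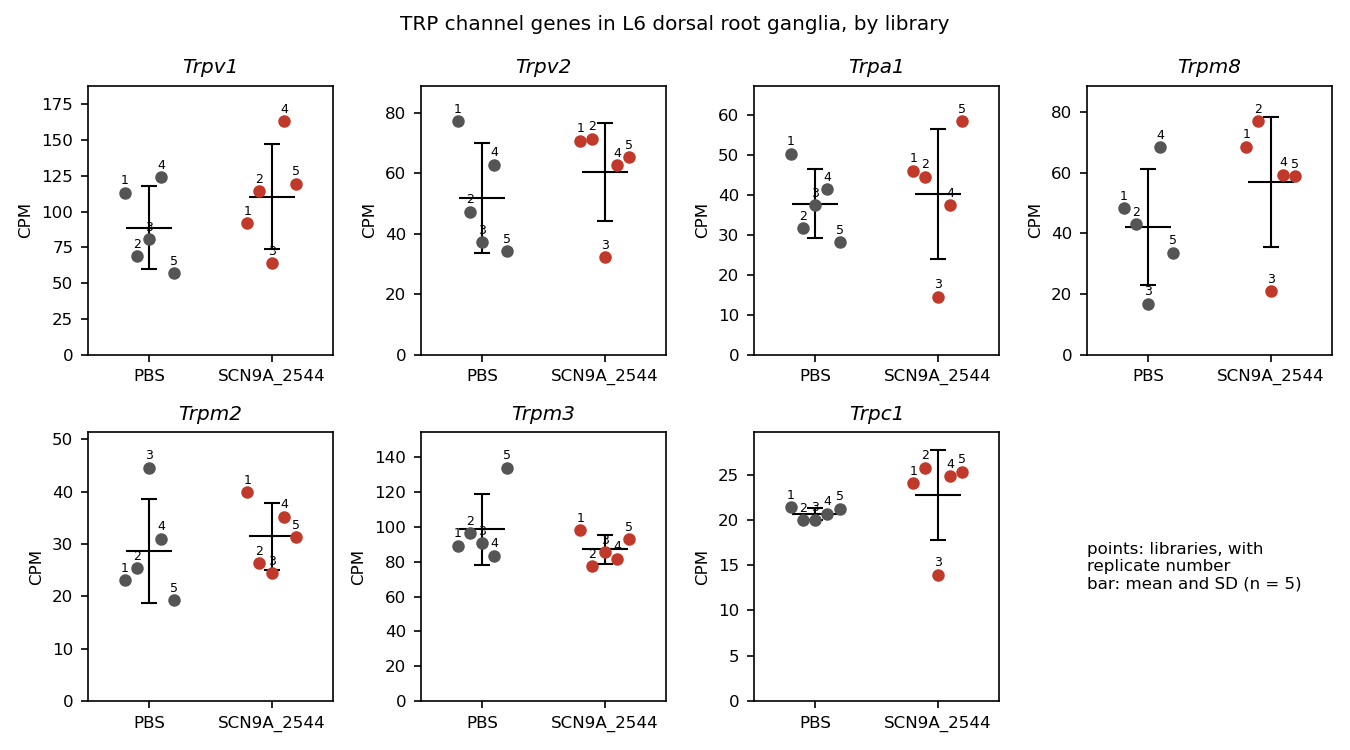
CPM (counts scaled to a common library total, y axis from 0) of each of the 7 genes in every library, PBS in grey and SCN9A_2544 in red, with the replicate number beside each point and the mean and SD (n = 5) as bars. The groups overlap in every panel, and SCN9A_2544 replicate 3 is the lowest treated library for Trpv1, Trpv2, Trpa1, Trpm8, Trpm2 and Trpc1.

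Trpm8, Trpv2, Trpa1 and Trpv1 rose with the neuronal content of the library. In an edgeR fit with treatment and the pan-neuronal mean as terms, 4 of the 7 genes rose with the pan-neuronal mean and 0 fell, against 22.1% of all genes rising and 20.6% falling. The slope, the change in log2 CPM of the gene per unit of log2 CPM of the pan-neuronal mean, was 1.44 for Trpm8 (SE 0.14, 95% interval 1.13 to 1.75, adjusted p = 2.63e-05). It was 0.93 for Trpv2 (SE 0.12, 0.66 to 1.19, adjusted p = 0.000131), 0.87 for Trpa1 (SE 0.24, 0.34 to 1.40, adjusted p = 0.0132) and 0.68 for Trpv1 (SE 0.22, 0.20 to 1.16, adjusted p = 0.0261). A gene that follows the pan-neuronal list one for one has a slope of 1. In this fit the intervals of Trpv2, Trpa1 and Trpv1 held 1 and that of Trpm8 did not. The Trpm8 slope was nearer 1 in some of the other fits given below.

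The other 3 genes did not pass this test. Trpc1 had a slope of 0.37 (SE 0.15, 0.05 to 0.70, adjusted p = 0.058). Trpm2 had one of -0.04 (SE 0.24, -0.56 to 0.49, adjusted p = 0.920) and Trpm3 one of -0.12 (SE 0.15, -0.44 to 0.20, adjusted p = 0.553). The intervals of all 3 genes, Trpc1, Trpm2 and Trpm3, lay wholly below that of Trpm8 and, as intervals for single genes, excluded a slope of 1. Over the 10 libraries the standard deviation of log2 CPM was 0.75 for Trpm8 and 0.22 for Trpm3, and after subtracting the pan-neuronal mean of each library it became 0.33 for Trpm8 and 0.58 for Trpm3. For Trpv2 it went from 0.48 to 0.17. The differences between the slopes of these genes were not tested.

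The calls for Trpm8 and Trpv2 held with each single library left out, with adjusted p of at most 0.00278. Those for Trpv1 and Trpa1 were lost without SCN9A_2544 replicate 3, the library of lowest neuronal content, with slopes of 0.51 and 0.36 and edgeR adjusted p-values of 0.218 and 0.255. The Trpv1 call was also lost without PBS replicate 1 (adjusted p = 0.0519) or PBS replicate 4 (adjusted p = 0.0734). Trpc1 passed without PBS replicate 3 (adjusted p = 0.0395) or PBS replicate 4 (adjusted p = 0.0376), and its slope was 0.02 without SCN9A_2544 replicate 3. The slope of Trpm2 turned with single libraries, to 0.43 without PBS replicate 3 (adjusted p = 0.082) and to -0.43 without SCN9A_2544 replicate 3 (adjusted p = 0.275). Without the 3 libraries of lowest neuronal content 0 of the 7 genes passed, with slopes of 1.23 for Trpm8 (adjusted p = 0.208) and 1.17 for Trpv2 (adjusted p = 0.222).

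**Figure D2:**
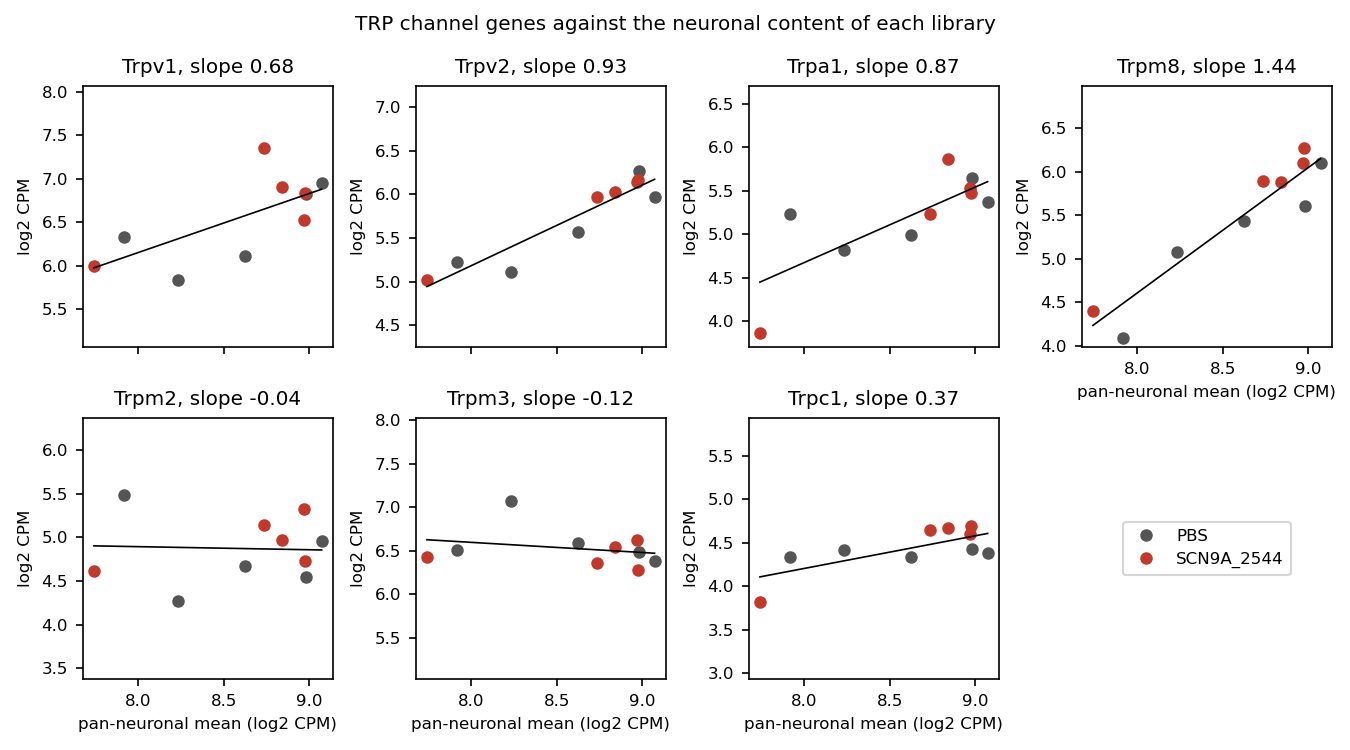
Log2 CPM of each gene (y axis, 3 log2 units in every panel) against the library's own mean log2 CPM over the 20 pan-neuronal genes (x axis, pan-neuronal content), PBS in grey and SCN9A_2544 in red, with a line of the fitted edgeR slope through the means. Trpm8 and Trpv2 lie along rising lines, while the Trpm2 and Trpm3 slopes of -0.04 and -0.12 are nearly flat.

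The mean of 12 Schwann cell and myelin genes gave slopes of the opposite sign: 4 of the 7 genes fell with it and 0 rose, against 20.2% of all genes falling and 19.1% rising. The slopes were -0.67 for Trpm8 (adjusted p = 0.00296), -0.50 for Trpv2 (adjusted p = 0.00013), -0.45 for Trpa1 (adjusted p = 0.0167) and -0.35 for Trpv1 (adjusted p = 0.0381) by edgeR. The Trpv1 call was lost in 7 of the 10 fits with 1 library left out: PBS replicate 1, 2, 4 or 5, or SCN9A_2544 replicate 2, 3 or 5, with adjusted p from 0.0523 to 0.184. The Trpa1 call was lost without SCN9A_2544 replicate 3 (slope -0.23, adjusted p = 0.0974). CPM values share a fixed total, so neuronal and myelin content are not separate measurements here. Trpm3 had a slope of 0.07 on the myelin mean (95% interval -0.10 to 0.23) and Trpm2 one of -0.01 (-0.30 to 0.27).

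TRPV2 and TRPM2 are also made by macrophages, and macrophage RNA differed between the libraries. The mean of 14 macrophage markers ran from 3.07 to 3.74 log2 CPM in PBS and from 3.60 to 4.43 in treated libraries. Of the 14, 13 had a treatment log2 fold change above 0, beside 8108 of all 15186 genes tested. By edgeR 0 of the 14 passed and 7 had an unadjusted p under 0.05, beside 4.23% of all genes; 4 had groups that did not overlap, beside 0.665% of all genes. DESeq2 called 1, the complement gene C1qa, at 1.01 on the log2 scale (adjusted p = 0.013), beside 0.0945% of the genes for which it gave an adjusted p. With this mean in the fit, the treatment log2 fold changes of Trpv2, Trpa1, Trpm8 and Trpc1 were 0.63, 0.63, 0.77 and 0.32, each over 1.5 times the value without it, and 0 of the 7 passed (adjusted p of 0.731 for each of these 4). For the slope on this mean in the same fit, 0 of the 7 genes passed in either direction, against 0% of all genes rising and 0% falling. The slope of Trpm2 was 0.14 (95% interval -0.83 to 1.11) and that of Trpv2 was -0.74 (-1.67 to 0.20). The intervals were wider than those on the neuronal mean for all 7 genes. Trpm2 had its highest value in PBS replicate 3, where the macrophage mean was 3.43, within the range of the other PBS libraries. Satellite glia markers, examined after the first results were seen, gave 0 calls among the 7 genes and 0 among all genes by edgeR. Their mean did not overlap between the groups and varied little within them (SD 0.14 in PBS and 0.065 in treated libraries). With treatment in the fit these slopes had little range to rest on, so the 0 calls decide nothing. Trpv2 had the steepest slope, 2.47 (-0.35 to 5.29), and Trpm3 the most negative, -1.06 (-2.59 to 0.47); 5 of the 7 slopes were above 0.

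**Figure D3:**
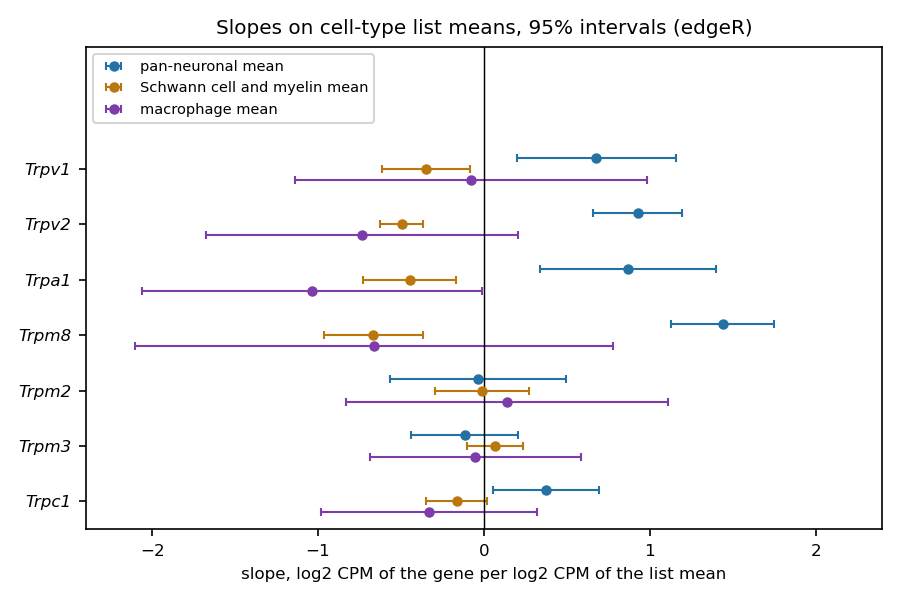
Slope of each gene (log2 CPM per log2 CPM of the list mean, x axis) on the pan-neuronal, Schwann cell and myelin, and macrophage means, with 95% intervals from edgeR fits that hold treatment as a term. For Trpv1, Trpv2, Trpa1 and Trpm8 the neuronal interval lies above 0 and the myelin interval below 0, and the macrophage intervals are the widest for every gene.

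At equal neuronal content the standard error of Trpm8 was 0.12 in place of 0.37, and there was still no call. Once the pan-neuronal mean entered the fit, 0 of the 7 genes passed an edgeR adjusted p of 0.05, against 0.00659% of all genes, which is 1 gene, Scn9a, lower in treated ganglia (log2 fold change -1.13, adjusted p = 0.038). Trpm8 had a log2 fold change of 0.31 (SE 0.12, 95% interval 0.05 to 0.57), with an unadjusted p of 0.0223 and an edgeR adjusted p = 0.498. It was the 1 gene of the 7 with an unadjusted p under 0.05 in this fit, which 9.64% of all genes reached. Trpm8 log2 CPM minus the pan-neuronal mean was -3.38, -3.19, -3.83, -2.97 and -3.16 in PBS replicates 1 to 5 and -2.87, -2.70, -3.34, -2.84 and -2.96 in treated replicates 1 to 5. Treated replicates 1, 2, 4 and 5 lay above all PBS libraries, the last of them by 0.01, and replicate 3 lay within the PBS range. The subtraction removes neuronal content fully only for a gene of slope 1, and the Trpm8 slope was 1.44. These values therefore still carry part of the neuronal content. Groups that do not overlap on this scale were seen for 0 of the 7 genes and for 0.283% of all genes.

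Relative to neurons, Trpv2 was the steadiest: its treated libraries lay between -2.82 and -2.73 and its PBS libraries between -3.13 and -2.70 on the log2 scale. Its log2 fold change at equal neuronal content was 0.15 (95% interval -0.09 to 0.38). Those of Trpv1 and Trpa1 were 0.26 (-0.16 to 0.68) and -0.08 (-0.54 to 0.37), and those of Trpm2, Trpm3 and Trpc1 were 0.14, -0.16 and 0.08. Against the Scn9a estimate of -1.13, a fall of that size lay outside the interval of every one of the 7 genes, the lowest bound being -0.54 for Trpa1.

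SCN9A_2544 replicate 4, the highest library for Trpv1, also had the highest mean of the 8 peptidergic nociceptor markers, 6.80 log2 CPM against 5.04 to 6.24 in the other libraries. It had the highest nerve injury mean, 5.94, and the highest macrophage mean, 4.43, as well. Over 12 nerve injury genes that were tested, the mean ran from 3.72 to 4.06 log2 CPM in PBS and from 4.16 to 5.94 in treated ganglia, without overlap, so the injury mean and the treatment cannot be told apart between the groups. In a fit with treatment and the injury mean 0 of the 7 genes passed by edgeR, against 0.0132% of all genes rising and 0% falling. Trpv1 had a slope of 0.59 on the injury mean (95% interval 0.07 to 1.11, adjusted p = 0.735), and without SCN9A_2544 replicate 4 the treatment estimate of Trpv1 was 0.13.

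The rest of the TRP family was measured beside them. Of 21 other TRP channel genes 20 had a row and 12 were tested, 6 lay above and 6 below 0, and 0 passed in either direction by edgeR or by DESeq2, with 0 at an unadjusted edgeR p under 0.05, a count near the 4.23% of all genes (0.0945% were called by DESeq2). Their median log2 fold change was 0.04. The vanilloid family members were Trpv3, a keratinocyte heat channel, at 0.31 (SE 0.46), Trpv4, an osmotic and mechanical sensor, at 0.46 (SE 0.40), and Trpv6, an epithelial calcium channel, at -0.18 (SE 0.31). The melastatin members were the calcium-activated channel Trpm4 at 0.19 (SE 0.23), and the channel kinases Trpm6 and Trpm7 at -0.17 (SE 0.56) and -0.14 (SE 0.14). Of the canonical members, Trpc5 lay at 0.24 (SE 0.64) and Trpc2 at -0.11 (SE 0.44). The lysosomal channel Mcoln1 lay at 0.19 (SE 0.17), the polycystin Pkd2 at -0.06 (SE 0.26) and Pkd2l2 at -0.03 (SE 0.59). The signs of Trpc5 and Pkd2 turned at equal neuronal content, to -0.12 and 0.06.

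The 8 that fell below the count filter were Trpc4, Trpc7, Trpv5, Trpm1, Trpm5, Mcoln2, Mcoln3 and Pkd2l1, with 7 to 122 counts over all 10 libraries. Of the 12 tested genes, 5 rose with the pan-neuronal mean by edgeR, among them Trpc5 (slope 2.23), Trpm6 (1.93), Trpm4 (0.68) and Mcoln1 (0.47), with adjusted p of at most 0.00519. Pkd2 was the 1 that fell, with a slope of -0.76 (adjusted p = 0.00364). Among all genes 22.1% rose and 20.6% fell.

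**Figure D4:**
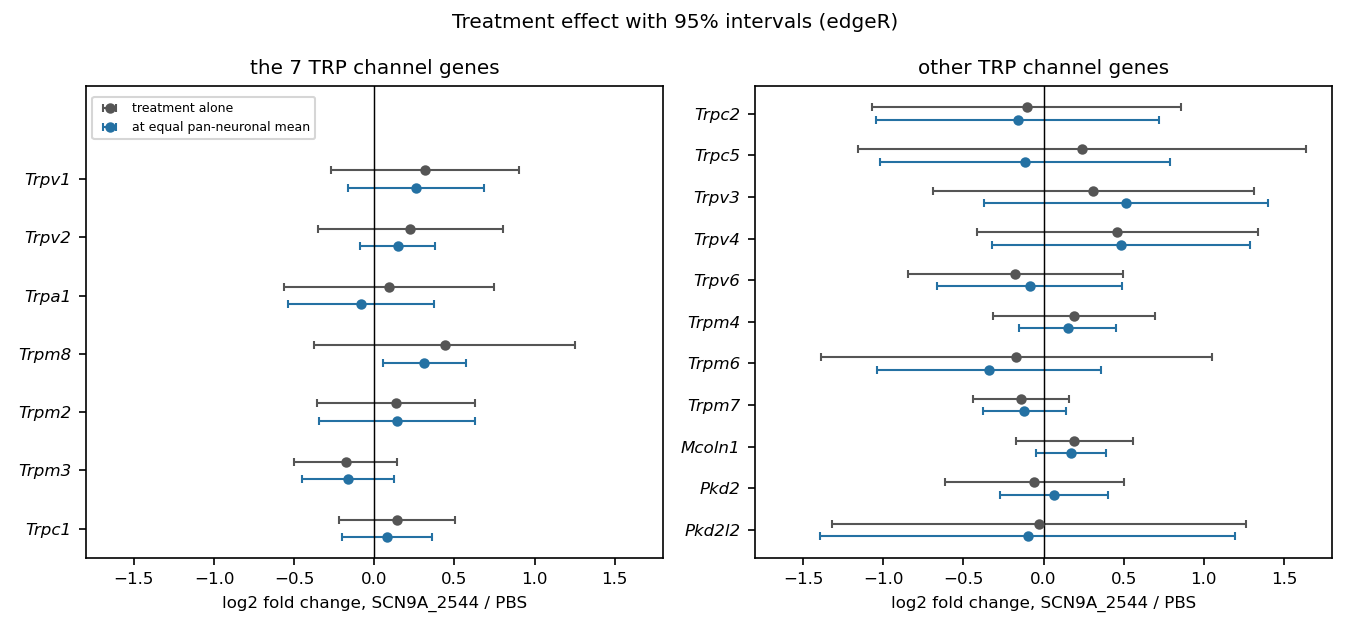
Log2 fold change of SCN9A_2544 against PBS with 95% intervals from edgeR, for the 7 TRP channel genes (left) and other TRP channel genes tested (right), with treatment alone in grey and at equal pan-neuronal mean in blue. All grey intervals cross 0, and among the blue ones the interval of Trpm8, 0.05 to 0.57, does not, although its adjusted p was 0.498.

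Genes of proteins that bind, modify or signal to these channels also gave no call by edgeR or DESeq2. Of 32 named partner genes 31 had a row and 30 were tested, under 31 identifiers, which are counted here as 31 entries. Of these entries 21 lay above and 10 below 0, 0 passed in either direction, and 1 reached an unadjusted p under 0.05, beside 4.23% of all genes. At equal neuronal content 5 of the 31 did, beside 9.64% of all genes. The one with treatment alone was Cav1, the caveolin that binds TRPC1, with a PBS mean of 155 ± 88.5 CPM and a treated mean of 80.5 ± 18.2 CPM (SD, n = 5 each). Its log2 fold change was -0.94 (SE 0.38, edgeR adjusted p = 0.963), and Cav1 also fell with the pan-neuronal mean, with a slope of -1.01. The bradykinin receptor gene Bdkrb2, whose signal sensitises TRPV1, lay at 0.52 (SE 0.29), and Gnaq, the G protein subunit that carries that signal and binds TRPM8, at 0.40 (SE 0.24). Gnao1, a G protein subunit whose beta-gamma partners close TRPM3, lay at 0.36 (SE 0.26), and Tmem100, which adjusts the coupling of TRPA1 to TRPV1, at 0.36 (SE 0.28). Snapin, a vesicle protein that binds TRPV1, lay at -0.17 (SE 0.11), the annexin A2 partner S100a10 at -0.22 (SE 0.16) and the calcium store sensor Stim1 at 0.18 (SE 0.14).

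By neuronal content, 16 of the 31 partner entries rose and 4 fell by edgeR, beside 22.1% of all genes rising and 20.6% falling. Bdkrb2, Gnao1 and Gnaq were among the risers, with slopes of 0.98, 0.89 and 0.65. Tmem100, Snapin, S100a10 and Stim1 did not pass, with slopes of 0.12, -0.10, 0.21 and 0.25.

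The genes most like each channel gene over the 10 libraries were found by Pearson r of log2 CPM centred within each group, among named genes of at least 1 CPM. Trpm8 was most like Amigo1, an adhesion protein that partners Kv2.1 channels (r = 0.99), Habp4 and Arhgap44 (both r = 0.99). Trpv2 was most like Ahsa1, a cochaperone of Hsp90, Pgm2l1 and Ube3c (r = 0.99 each). For these 2 genes 6.85% and 7.03% of all genes compared had an r over 0.9, and the points share the neuronal content of the libraries. Trpv1 was most like Tom1l1 (r = 0.98), Nrsn2 and Dusp26 (0.97 and 0.96), and Trpa1 most like Map7, a microtubule protein (0.99), Cdo1 and Ssu72 (0.98 each). Trpc1 was most like Krt28, Cd164 and Kctd14 (0.97, 0.97 and 0.96). For Trpm3 the nearest were Dnhd1, Bmpr1a and Mylk (0.92, 0.92 and 0.91) and for Trpm2 Krt2, Tars1 and Acbd4 (0.91, 0.87 and 0.86), with 0.0301% and 0.00753% of genes over 0.9.

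After subtracting the pan-neuronal mean the nearest genes were mostly others. For Trpm8 they were Ndst3, an enzyme of heparan sulfate synthesis (r = 0.93), Cemip, which binds hyaluronan (0.92), and Arhgap44 (0.89). For Trpv2 they were Scel, the protease-activated receptor gene F2rl2 and the sensory receptor gene Mrgprb4 (0.92, 0.91 and 0.91), and for Trpv1 Ptpro, Syngr3 and Tom1l1 (0.96, 0.95 and 0.94). For Trpa1 they were Map7, Thnsl1 and Micu3 (0.93, 0.89 and 0.88), and for Trpm2 Hmox2, Krt2 and Idh3g (0.97, 0.97 and 0.94). Trpm3 was then most like Wsb1, Plcb4 and Ccdc50 (each 0.99) and Trpc1 like Zfp51, Tmem170b and Sh3bgrl (0.99, 0.99 and 0.98). On this scale any 2 genes that do not follow neurons share the subtracted mean, and 28.7% of genes reached an r over 0.9 with Trpm3.

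Among the 7 genes themselves, the closest pairs by the same measure on log2 CPM were Trpa1 with Trpc1 (r = 0.89), Trpv2 with Trpm8 (0.86), Trpv2 with Trpa1 (0.85) and Trpv1 with Trpv2 (0.79), each over 10 libraries that share their neuronal content. After subtracting the pan-neuronal mean Trpv2 with Trpm8 had an r of -0.75 and Trpa1 with Trpc1 one of 0.45. Trpv1, the heat channel gene, and Trpm8, the cold channel gene, had an r of 0.62 before and of -0.54 after the subtraction. The negative sign was not particular to this pair. After the subtraction Trpm8 had a negative r with every other gene of the 7, from -0.44 with Trpa1 to -0.81 with Trpm2. Trpm8 had a slope of 1.44 on the pan-neuronal mean, and the highest slope of the others was 0.93, for Trpv2. The subtraction leaves a gene of slope above 1 rising with neuronal content and one of slope below 1 falling. These negative signs are therefore not independent of the subtraction.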

How the data were processed

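The values are estimated counts of reads for each gene in each library, which the authors deposited without normalization. Per the labels' protocols, poly(A) RNA was sequenced as paired reads of 150 bases. Build mRatBN7.2, STAR 2.7.10a and DESeq2 1.44.0 are named, without a role, per the submitters' processing notes. Which program did the counting, with which annotation and strand setting, is not given in the sources used here. Estimated counts were rounded, filtered with filterByExpr (minimum count 10, minimum total 15), scaled by TMM and tested with edgeR 4.0.16 in R 4.3.3 (quasi-likelihood F-test, Benjamini-Hochberg over 15186 genes, threshold 0.05); DESeq2 1.42.0 was an alternative. The design had assumed raw counts. The standard error is the log2 fold change over the square root of F, log2 CPM uses a prior count of 2, and covariates are list means of log2 CPM. Raw counts are not corrected for transcript length, so levels were not compared between genes. A chi-square per gene of at least 7.70 in all 45 pairs of libraries showed no repeated library.

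The members and gene lists were chosen with earlier results of these data known. Named genes were all members, the tested genes of the other TRP list (the values of some listed genes are not reported here), the 8 partners of smallest p and the 3 genes most like each member on each scale. The fits were tested on simulated counts. In these, a treatment difference of 1.5-fold was recovered for 6% of 50 altered genes and one of 2-fold for 40%. At 3-fold and 4-fold the values were 78% and 90%. An absolute slope of 1 on the pan-neuronal mean was recovered for 63% of 200 genes. The labels' replicate numbers were checked for pairing and were not taken to pair the samples, though the check cannot settle it. No column lacked a sample.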

Additional observations from a re-analysis of the deposited data

Results flagged for a closer look

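In SCN9A_2544 replicate 3, 3 genes lay far below the other 4 treated libraries on the log2 CPM scale. Trpv2 was at 5.01 there against a nearest value of 5.97, Trpm8 at 4.40 against 5.89, and Trpc1 at 3.82 against 4.60. This library had the lowest pan-neuronal mean of all 10, 7.74, and the highest Schwann cell and myelin mean, 10.1. After subtracting the pan-neuronal mean Trpv2 no longer stood apart in it. Trpm8 was still lowest in it, at -3.34 against a nearest treated value of -2.96, a gap that was no longer flagged. Trpm3, at -1.32 against -2.30, then lay far above the other treated libraries. Before the subtraction Trpm3 was at 6.42 log2 CPM in it, within the 6.28 to 6.62 of the other treated libraries. This gap thus came with the low pan-neuronal mean that was subtracted. Trpm2 minus the pan-neuronal mean was -2.43 in PBS replicate 3 against -3.95 in the nearest PBS library. In all, 28 groups of 5 values were examined for such a gap, and chance alone marks about 1 in 20.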

How the results depend on the processing

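No member passed the treatment test in any of the 19 alternatives, nor in the 15 at equal neuronal content, and 0 other TRP genes or partners passed. Over these, 14 of 238 member estimates changed sign, none of them past the threshold. With the nerve injury covariate, which does not overlap between the groups, the log2 fold changes were -0.31 for Trpv1, -0.19 for Trpv2, -0.39 for Trpa1, -0.040 for Trpm8, -0.16 for Trpm2 and -0.12 for Trpc1. Trpa1 was -0.11 with the Schwann cell and myelin covariate. With 1 library left out Trpa1 ran from -0.084 to 0.27, or from -0.22 to 0.18 at equal neuronal content, and Trpm2 from -0.0027 to 0.35. The count of genes called over the whole table was 17 by DESeq2, 1 with the Schwann cell and myelin covariate, 1 with the nerve injury covariate and 0 to 1 with 1 library left out. With the 3 libraries poorest in neuronal RNA left out, a setting chosen after seeing the data, it was 1, Trpa1 at equal neuronal content was 0.21, and 0 members passed on the pan-neuronal or the myelin mean. Leaving them out also narrows the range of neuronal content, and the Trpm8 and Trpv2 slopes were then 1.23 and 1.17. With 1 library left out, 2 to 5 members passed on the pan-neuronal mean and 2 to 4 on the myelin mean.

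Label numbers were not taken to pair the samples. The correlations of deviations of same-numbered libraries were 0.38, 0.005, 0.57, -0.0063 and 0.051. The best treated match had the same number for PBS replicates 1 and 3 but not for replicates 2, 4 and 5. So few values cannot settle whether the numbers pair the samples. With the replicate block, 0 members passed on the pan-neuronal mean and 0 on the myelin mean, with slopes of 1.00 for Trpm8 and 1.18 for Trpv2 on the former, and the Trpa1 log2 fold change was -0.0033. The 0 treatment calls were the same with the block. Depth limits the 8 other TRP genes below the filter.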
